A study of Homo sapiens with 32 samples.

Results

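The genes described here encode the proteasome: the subunits of its 20S core and 19S cap, the interferon-inducible subunits of the immunoproteasome, the activators that dock on the core, and the chaperones that help to assemble it. They were chosen by symbol, as every gene of the count table named PSMA, PSMB, PSMC, PSMD, PSME, PSMF or PSMG followed by a number, and came to 48 of the 19023 genes counted. By role they were 14 constitutive 20S core genes, 3 immunoproteasome genes, 17 genes of the 19S cap, 5 activator or regulator genes, 7 assembly chaperones and 2 genes of the testis or thymus (PSMA8 and PSMB11). The counts came from RPE-1, an immortalised human line of retinal pigment epithelial cells labelled as WT in every group. All cells had first been kept for 18 h without serum. One group was collected at that point (0 h) and the others after 5, 10 or 15 h of serum, with 4 biological replicates per time, each measured by RNA-seq of ribosomal RNA-depleted total RNA and by Ribo-seq, which counts the mRNA fragments that ribosomes protect (footprints). No group stayed without serum for as long as the later ones had it, so the action of serum and the passing of time cannot be told apart.

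The proteasome is the protease that degrades most ubiquitin-tagged proteins of the cytosol and nucleus. Its barrel-shaped 20S core is a stack of rings of alpha subunits, which gate the entrance, and of beta subunits, of which PSMB5, PSMB6 and PSMB7 carry the catalytic sites. The 19S cap binds the ubiquitin chain, cuts it off and unfolds the substrate with a ring of ATPases. Interferon replaces the catalytic subunits with PSMB8, PSMB9 and PSMB10, and the resulting immunoproteasome is known for producing peptides for antigen presentation. Transcription of the constitutive genes is known to be raised together by the factor NFE2L1 when proteasome activity falls short.

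Total counts ran from 595851 to 1107470 per RNA library and from 2851423 to 9901322 per footprint library, and footprint changes had the smaller errors. A total of 44 members had enough counts to be tested; PSMA2 and PSMA8 had a count of 0 in all libraries, PSMB11 had 4 counts in RNA and 3 in footprints, and PSMC1 had 6 and 8. The alpha subunit PSMA2 and the ATPase PSMC1 belong to every proteasome, so these values say nothing about the cells' level of either. The RNA libraries of replicates 2 and 3 at 0 h and of replicate 2 at 5, 10 and 15 h stood apart from the rest: across genes, their deviations from the mean of their time correlated in all 9 pairs from different times (r = 0.27 to 0.58), against -0.54 to 0.12 in the 42 pairs with 1 of them and -0.16 to 0.51 in the 45 pairs with none. The RNA counts and part of the RNA changes are therefore given with and without these 5 libraries. The other RNA changes are given with all libraries only. The keratins KRT8 and KRT18, vimentin (VIM) and N-cadherin (CDH2) were well covered at 0 h, with means of 582, 757, 6729 and 235.6 CPM (counts relative to the scaled library total) in RNA, while CDH1 had no RNA count at 0 h and EPCAM had 1. Of 8 pigment epithelium markers, RPE65, TYR and PMEL were at or near 0 in RNA at 0 h (0, 0.255 and 0.997 CPM), and the 5 that could be tested in footprints were all lower at 15 h, led by RLBP1 (log2 change -2.86, edgeR adjusted p = 5.7e-05). Of 7 blood markers HBB and HBA1 had no count, and only CD68 (20.1 CPM in RNA at 0 h) was high enough to test. Fewer cells of a type and less RNA per cell cannot be told apart in these bulk libraries, and the part of the marker changes in the results below was not tested.

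Over the time course most constitutive proteasome genes rose in footprints while the immunoproteasome genes fell. At 15 h, footprints of 34 of the 44 tested members had risen and those of 6 had fallen: PSMB6, PSMB8, PSMB9, PSMB10, PSME1 and PSME2. A gene was called where the edgeR quasi-likelihood test gave a p under 0.05 after Benjamini-Hochberg adjustment over all genes tested in that comparison, and a change is a log2 ratio relative to the other genes, since no spike-in was used. Among all 10959 genes tested in footprints at 15 h, 40.1% were called higher and 39.6% lower, with a median change of -0.01, against a median of 0.51 over the members. At 10 h, 31 members were higher and 7 lower in footprints (all genes 39.4% and 39%; member median 0.41), and at 5 h, 25 were higher and 10 lower (all genes 35.2% and 40.5%; member median 0.24). The 3 comparisons share the 4 libraries of 0 h.

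In RNA the members' shares were nearer to those of all genes. At 15 h, 15 members had risen and 9 had fallen (all genes 28.4% and 22.1%), with a median log2 change of 0.24 against 0.05 over all 8775 genes tested. At 10 h, 12 were higher and 8 lower (all genes 24.8% and 19.3%; member median 0.17), and at 5 h, 10 were higher and 5 lower (all genes 19.4% and 16.4%; member median 0.11). Without the 5 libraries that stood apart, the counts were 16 higher and 9 lower at 15 h, 13 and 9 at 10 h, and 8 and 4 at 5 h. The members together took 1.30% ± 0.08 (SD, n = 4) of RNA counts at 0 h and 1.21% ± 0.07 at 15 h, and 0.896% ± 0.020 of footprints at 0 h and 0.979% ± 0.014 at 15 h.

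**Figure D1:**
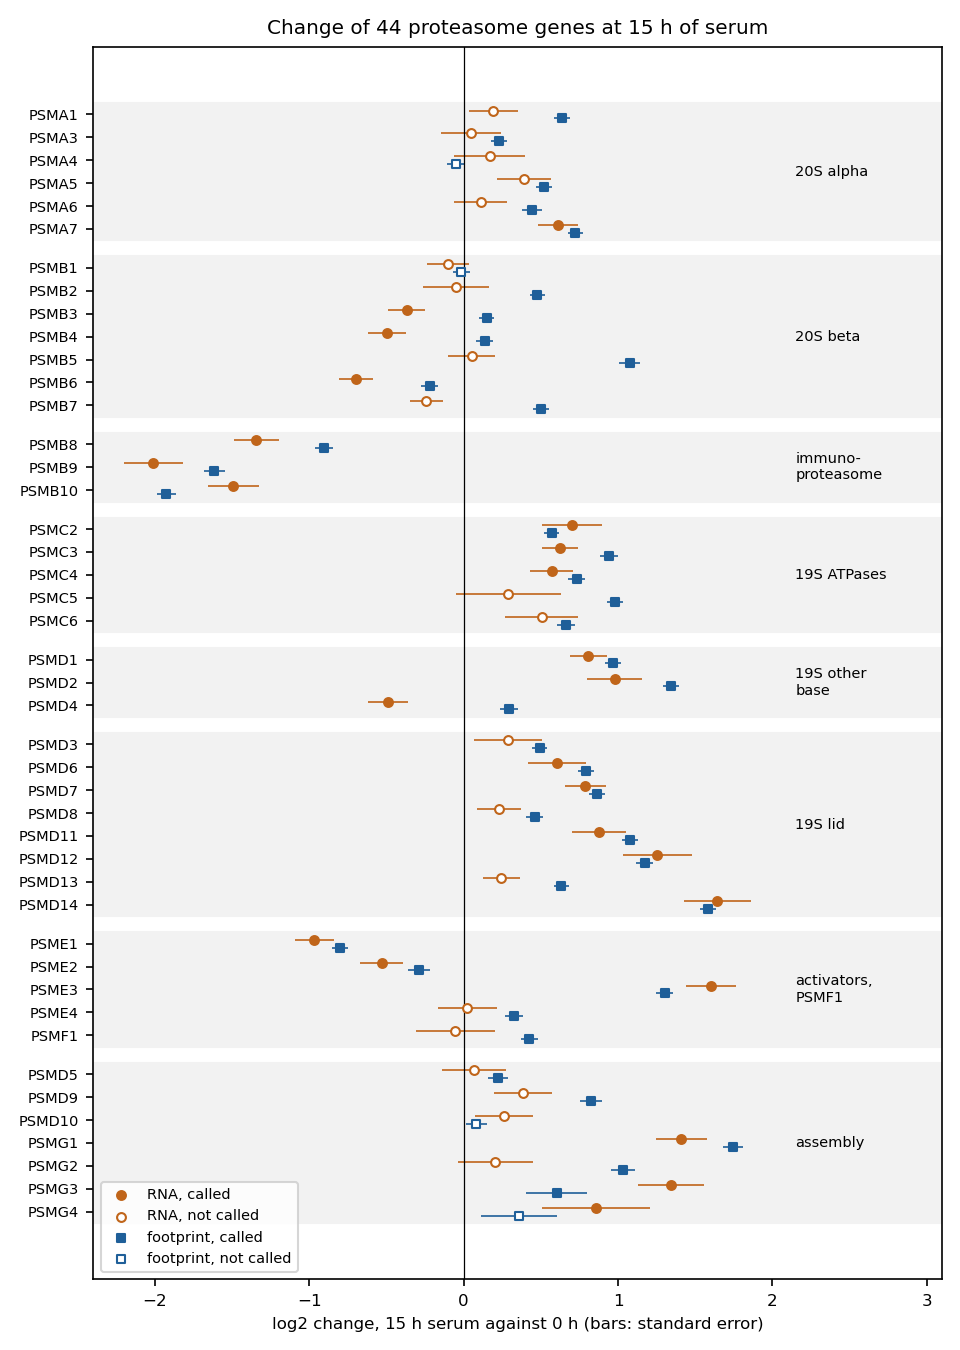
Log2 change of each of the 44 tested genes at 15 h of serum against 0 h (horizontal axis; bars are standard errors of the edgeR fit), grouped by role, with RNA and footprints as separate points. All 16 cap genes lie to the right of 0 in footprints, and the 3 immunoproteasome genes lie between -0.91 and -1.93.

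Most alpha ring genes rose in footprints. Of all genes tested, 35.2% were called higher and 40.5% lower in footprints at 5 h. At 15 h these shares were 40.1% and 39.6%, and 28.4% were called higher in RNA. At 5 h, 4 of the 6 tested had risen in footprints and PSMA3 and PSMA4 had fallen by 0.16 each on the log2 scale, calls that were lost without footprint replicate 1 of 0 h for PSMA3 (adjusted p = 0.059) and replicate 3 of 0 h for PSMA4 (adjusted p = 0.084). At 15 h, 5 of the 6 tested had risen in footprints (median log2 change 0.48) and only PSMA7 had risen in RNA. PSMA7, an alpha ring subunit, measured 713, 703, 712 and 831 CPM in the 4 RNA libraries at 0 h and 1219, 879, 1260 and 1160 CPM at 15 h. Its footprints went from 283, 286, 289 and 279 CPM to 456, 466, 474 and 481 CPM. All libraries at 15 h lay above all those at 0 h in both assays, and the changes were 0.61 ± 0.13 (standard error of the fit, SE) in RNA (edgeR adjusted p = 0.000539) and 0.72 ± 0.05 in footprints (adjusted p = 6.35e-17). The footprints of PSMA1, PSMA5, PSMA6 and PSMA3, which complete the alpha ring with the other members, were higher at 15 h by 0.64, 0.52, 0.44 and 0.23 on the log2 scale. PSMA4 was lower in footprints at 10 h, by 0.20 on the log2 scale, and measured -0.05 at 15 h (adjusted p = 0.43).

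The constitutive beta ring genes split between the assays. Of all genes tested at 15 h, 28.4% were called higher and 22.1% lower in RNA, and 40.1% and 39.6% in footprints. In RNA at 15 h, 3 of 7 had fallen (PSMB3, PSMB4 and PSMB6) and PSMB1, PSMB2, PSMB5 and PSMB7 were not called, with a median log2 change of -0.24. In footprints 5 had risen and only PSMB6 had fallen, with a median of 0.15. The catalytic subunits differed among themselves. PSMB5, which carries the chymotrypsin-like site, measured 115.5, 115.4, 142 and 119 CPM in RNA at 0 h and 121, 133.5, 122.5 and 133 CPM at 15 h, and the groups overlapped. Its footprints measured 57.9, 58.6, 66.5 and 52.6 CPM at 0 h, 82.2, 79.6, 79.4 and 89.8 CPM at 5 h, 112, 107.5, 99.3 and 113 CPM at 10 h, and 134, 115, 130 and 120 CPM at 15 h. Every later footprint library lay above every library of 0 h.

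The footprint change of PSMB5 at 15 h was 1.08 ± 0.07 (adjusted p = 1.77e-17), a 2.11-fold rise and the largest of the 20S core genes, and its RNA change was 0.05 ± 0.15 (adjusted p = 0.80). PSMB6, the caspase-like subunit, fell in both assays. Its RNA measured 453, 518, 529 and 479 CPM at 0 h and 293, 285.5, 327 and 318 CPM at 15 h, a change of -0.69 ± 0.11 (adjusted p = 2.11e-05), and -0.57 without the 5 libraries (adjusted p = 0.00083). Its footprints measured 240.0, 230, 243 and 253 CPM at 0 h and 210.1, 219.5, 198 and 203 CPM at 15 h, a change of -0.22 ± 0.05 (adjusted p = 0.00035), and the groups did not overlap in either assay. PSMB7, the trypsin-like subunit, measured 497, 425, 527 and 505 CPM in RNA at 0 h and 440, 375, 423 and 414 CPM at 15 h, where the groups overlapped and the change of -0.24 was not called (adjusted p = 0.068). Its footprints rose from 201, 235, 216 and 214 CPM to 310.1, 308, 310 and 300 CPM, all above 0 h, by 0.50 ± 0.05 (adjusted p = 7.37e-11).

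Of the beta subunits with no catalytic site, PSMB2 rose in footprints by 0.48 at 15 h, with an RNA change of -0.05 that was not called (adjusted p = 0.87). PSMB4 fell by 0.50 in RNA (adjusted p = 0.0024). PSMB3 fell by 0.37 in RNA, but without RNA replicate 2 of 15 h its adjusted p was 0.059. In footprints PSMB3 was lower at 5 h (-0.33) and higher at 15 h (0.15). The footprint rise of PSMB4 was 0.14, and without footprint replicate 3 of 0 h its adjusted p was 0.087. PSMB1 measured -0.10 in RNA and -0.02 in footprints at 15 h, neither of which was called (adjusted p = 0.56 and 0.80).

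The immunoproteasome genes fell in both assays at 10 and 15 h. In RNA at 15 h the 3 genes ranged from -1.34 to -2.01 on the log2 scale and in footprints from -0.91 to -1.93. The promoters below belong to members that fell and hold the core of the interferon-stimulated response element, where transcription factors of the interferon response are known to bind. The core, GAAA repeated after a gap of 2 bases of any kind, was searched on both strands from 250 bases before to 50 bases after each RefSeq start (GRCh38.p14) and was found in 7 of the 42 members with an entry (16.7%), namely PSMA4, PSMB4, PSMB8, PSMB10, PSME1, PSME2 and PSMG4, and in 4.38% of all 27305 genes with one. The capitals mark the match, which in these windows overlapped no other motif searched, and each window is written 5′ to 3′ on the strand of the gene. PSMB8 lies at chr6:32844032-32844061 (minus strand), PSMB10 at chr16:67936852-67936881 (minus), PSME1 at chr14:24136189-24136218 (plus) and PSME2 at chr14:24146619-24146648 (minus), and the match lies within 30 bases of the annotated start in all 4. PSMB8 has 2 RefSeq starts, of which 1 holds the match, and PSMB9 fell but held no match in this window. The other holders of the core did not all fall. At 15 h PSMG4 was called higher in RNA, a call lost without the 5 libraries, and PSMA4 was called in neither assay. PSMB4 fell in RNA and rose in footprints. The part of the core in these changes was not tested.
PSMB8: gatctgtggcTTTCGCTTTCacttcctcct
PSMB10: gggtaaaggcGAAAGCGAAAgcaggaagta
PSME1: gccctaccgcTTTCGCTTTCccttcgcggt
PSME2: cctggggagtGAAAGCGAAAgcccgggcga

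PSMB8, which replaces PSMB5, measured 178, 178.5, 189 and 181 CPM in footprints at 0 h, 128, 114.5, 134 and 137 CPM at 5 h, 103, 94.4, 101 and 90.9 CPM at 10 h, and 92.6, 98.8, 103 and 92.1 CPM at 15 h. All later libraries lay below those of 0 h, while the libraries of 10 and 15 h overlapped. Its footprints fell by 0.50 at 5 h, 0.90 at 10 h and 0.91 ± 0.06 at 15 h (adjusted p = 1.89e-17). Its RNA measured 370, 276, 323 and 290.5 CPM at 0 h and 127, 97.7, 145 and 127.5 CPM at 15 h, again without overlap, and fell by 1.34 ± 0.14 (adjusted p = 1.09e-07).

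PSMB9, which replaces PSMB6, measured 114, 123, 111 and 133 CPM in footprints at 0 h, 68.2, 68.3, 72.6 and 77.4 CPM at 5 h, 42.2, 40.2, 40.9 and 44.03 CPM at 10 h, and 44.4, 39.3, 40.4 and 35.1 CPM at 15 h. Most of its fall had taken place by 10 h: the change was -1.53 at 10 h and -1.62 ± 0.07 at 15 h against 0 h, and -0.08 between 10 and 15 h (adjusted p = 0.40). Its RNA fell from 139, 124, 163 and 125 CPM to 36.6, 35.8, 28.98 and 34.01 CPM at 15 h, a 4.03-fold fall (log2 change -2.01 ± 0.19, adjusted p = 1.93e-08) and the largest RNA change among the tested members.

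PSMB10, which replaces PSMB7, fell in footprints from 5 h on, while its RNA was called lower only at 10 and 15 h. Its footprints measured 296, 280.2, 287 and 260.3 CPM at 0 h, 214, 203, 221 and 214 CPM at 5 h, 125, 107, 124 and 118 CPM at 10 h, and 76.3, 71.6, 81.3 and 66.3 CPM at 15 h, with no overlap between any of the times. The change at 15 h was -1.93 ± 0.06 (adjusted p = 1.31e-27), a 3.80-fold fall, of which -0.69 fell between 10 and 15 h (adjusted p = 6.61e-12). Its RNA measured 378, 308.5, 369 and 410 CPM at 0 h and 348, 442, 375 and 382.5 CPM at 5 h, where the groups overlapped and the change of 0.08 was not called (adjusted p = 0.72). At 15 h its RNA measured 113.2, 113.2, 172.5 and 123 CPM, all below 0 h, and had fallen by 1.49 ± 0.17 (adjusted p = 1.98e-07). Without the 5 RNA libraries the 15 h changes in RNA were -1.31 for PSMB8, -1.98 for PSMB9 and -1.54 for PSMB10.

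**Figure D2:**
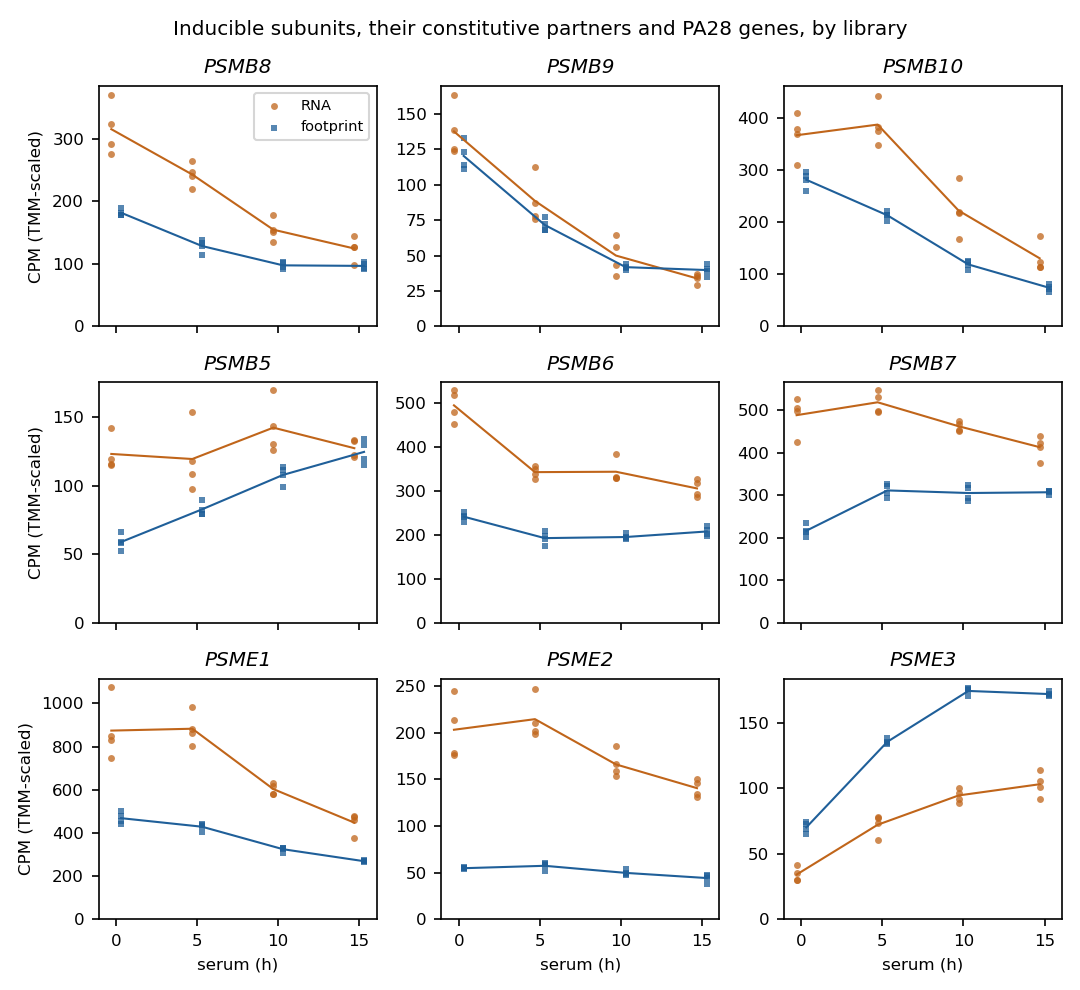
CPM in each library (vertical axis, linear from 0) against hours of serum for the inducible subunits PSMB8, PSMB9 and PSMB10, their constitutive partners PSMB5, PSMB6 and PSMB7, and the activator genes, with RNA and footprints as separate points. PSMB10 footprints descend from 260.3 to 296 CPM at 0 h to 66.3 to 81.3 CPM at 15 h, while PSMB5 footprints climb from 52.6 to 66.5 to between 115 and 134 CPM.

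The ratio of each inducible gene to its constitutive partner was taken within each library, where it does not depend on how libraries are scaled. Footprints of PSMB8 amounted to 307, 305, 284.5 and 343.5% of those of PSMB5 at 0 h and to 69.0, 86.0, 79.0 and 76.8% at 15 h. The groups did not overlap, and the change was -1.99 on the log2 scale, a 3.98-fold fall. The same ratio was 320.2, 239, 227 and 243% in RNA at 0 h and fell by 1.39 at 15 h. For PSMB9 over PSMB6 the 15 h changes were -1.31 in RNA and -1.38 in footprints, and for PSMB10 over PSMB7 they were -1.26 in RNA and -2.43 in footprints. A two-sided exact permutation test of 4 against 4 libraries gave p = 0.0286 for each of these, the smallest it can give, and an adjusted p of 0.0343 over the 18 ratio tests.

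Of those 18 tests, the 9 in footprints and the 6 in RNA at 10 and 15 h were called, and the 3 in RNA at 5 h were not (exact permutation adjusted p = 0.161, 0.575 and 0.857). Without the 5 RNA libraries the 15 h ratio changes in RNA were -1.39, -1.40 and -1.32, with 2 libraries left at 0 h and 3 at 15 h, where the smallest possible p is 0.2. Per kb of counted length, PSMB8 made up 54.7% ± 1.9 (SD, n = 4) of the footprints of the pair PSMB8 and PSMB5 before serum, 37.7% ± 1.5 after 5 h, 26.1% ± 1.9 after 10 h and 23.2% ± 1.6 after 15 h. PSMB9 made up 38.2% ± 1.8 of its pair at 0 h and 19.2% ± 1.5 at 15 h, and PSMB10 56.9% ± 2.4 and 19.6% ± 1.2. The deposited length of PSMB5 is 296 bases, so its share rests on a short counted stretch, which does not enter the ratio changes.

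The 19S cap genes rose in footprints throughout: 12 of the 16 tested at 5 h, with median log2 change 0.42 (all genes 35.2% higher). At 10 h 16 of 16 had risen (median 0.72, all genes 39.4%), and again 16 of 16 at 15 h (median 0.83, all genes 40.1%). At 10 h this count included PSMD4 at 0.13 (adjusted p = 0.036), which gave 0.172 without footprint replicate 3 of 10 h and 0.079 with DESeq2. In RNA 10 of the 16 had risen at 15 h and only PSMD4 had fallen, with a median of 0.61 (all genes 28.4% and 22.1%). Among the ATPases of the base, which unfold substrates and open the core, all 5 tested had risen in footprints at 15 h, from 0.57 for PSMC2 to 0.98 for PSMC5, and 3 in RNA. PSMC2 measured 343, 269, 200.4 and 311 CPM in RNA at 0 h and 570, 320.3, 453 and 486 CPM at 15 h, where the groups overlapped, and rose by 0.70 ± 0.20 (adjusted p = 0.0053). Its footprints rose from 268, 269, 283 and 269 CPM to 379, 415, 415 and 410 CPM, by 0.57 ± 0.05 (adjusted p = 1.31e-13), without overlap.

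PSMC5 footprints rose from 204, 191, 195 and 172 CPM to 372, 374, 369.5 and 383 CPM at 15 h, by 0.98 ± 0.05 (adjusted p = 2.43e-20). Its RNA measured 84.0, 145, 185 and 99.2 CPM at 0 h and 128, 253, 125 and 118 CPM at 15 h. These groups overlapped, 1 library at 15 h stood far above the others, and the RNA change of 0.29 ± 0.34 was not called (adjusted p = 0.50). PSMC3 and PSMC4 rose in both assays at 15 h, by 0.62 and 0.57 in RNA and by 0.94 and 0.73 in footprints. PSMC4 was already at 0.72 in footprints at 5 h, where PSMC3 (-0.06) and PSMC6 (0.03) were not called (adjusted p = 0.34 and 0.68).

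Of the other base genes, PSMD2, a scaffold subunit that holds ubiquitin receptors, measured 396, 366, 403 and 377 CPM in footprints at 0 h, 606, 612, 599 and 565 CPM at 5 h, 870, 795, 856 and 850 CPM at 10 h, and 978, 963, 975 and 999 CPM at 15 h. The times did not overlap, and the change at 15 h was 1.34 ± 0.05 (adjusted p = 3.61e-25). Its RNA measured 595, 876.5, 974 and 677 CPM at 0 h and 1302, 1919, 1569 and 1363 CPM at 15 h and rose by 0.98 ± 0.18 (adjusted p = 0.000104), or by 1.15 without the 5 libraries (adjusted p = 8.5e-08). PSMD1, the other scaffold subunit, rose by 0.81 in RNA and 0.97 in footprints.

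PSMD4, a ubiquitin receptor of the cap, was the exception in RNA. Its RNA measured 329, 300.4, 292 and 273 CPM at 0 h and 231, 177, 220 and 222 CPM at 15 h, without overlap, and fell by 0.49 ± 0.13 (adjusted p = 0.0033; -0.43 and 0.029 without the 5 libraries). Its footprints measured 101, 94.7, 98.2 and 95.7 CPM at 0 h and 119, 117, 121 and 120 CPM at 15 h, also without overlap, and rose by 0.29 ± 0.06 (adjusted p = 9.68e-06).

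The lid is the part of the cap that removes the ubiquitin chain, and its gene PSMD14 had the largest change of the cap genes in both assays. In footprints 7 of its 8 genes had risen at 5 h and 8 of 8 at 10 and 15 h, with medians of 0.56, 0.72 and 0.83. Of all genes, 35.2%, 39.4% and 40.1% were called higher in footprints at these times, and 19.4%, 24.8% and 28.4% in RNA. In RNA 5 of 8 had risen at each time (PSMD6, PSMD7, PSMD11, PSMD12 and PSMD14), with medians of 0.64, 0.62 and 0.70. PSMD6 rested on single libraries in RNA: without RNA replicate 2 of 0 h its adjusted p was 0.143 at 5 h and 0.069 at 15 h, and without RNA replicate 1 of 10 h it was 0.165 at 10 h. Their promoters are shown for the sequence CCGGAAG, the core that transcription factors of the ETS family are known to bind. It was found, on either strand, in 6 of the 8 lid genes, in 15 of the 42 members with an entry (35.7%) and in 12.2% of all genes with one. The capitals mark the match, CTTCCGG being its reverse complement, and in these windows it overlapped no other motif searched. The windows are from RefSeq GRCh38.p14: PSMD14 at chr2:161308410-161308439 (plus strand), PSMD12 at chr17:67366567-67366596 (minus), PSMD7 at chr16:74296801-74296830 (plus), PSMD6 at chr3:64023513-64023542 (minus), PSMD13 at chr11:236953-236982 (plus) and PSMD8 at chr19:38374543-38374572 (plus). PSMD3 and PSMD11 held no match in this window, and PSMD11 rose in RNA as well. PSMD13 and PSMD8 held a match and were not called in RNA. The part of this core in the lid changes was not tested.
PSMD14: aactagtgaacCCGGAAGtgcttcgcggcg
PSMD12: tgcgcgggcaaCTTCCGGtgtgggtgacga
PSMD7: gggctgacgaaCCGGAAGaagaggaactgg
PSMD6: cggagacgggaCCGGAAGccgggccgcagg
PSMD13: gccgctcggcgCCGGAAGtgagtgagcatt
PSMD8: gcaaaagccaaCTTCCGGtcaccatcttga

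PSMD14, the deubiquitinase of the lid, measured 134.5, 118, 136 and 119 CPM in footprints at 0 h, 258, 247, 244.5 and 251 CPM at 5 h, 340.2, 332, 345 and 322 CPM at 10 h, and 370.3, 397.5, 368 and 381 CPM at 15 h, each time above the one before without overlap. The change at 15 h was 1.58 ± 0.05 (adjusted p = 1.94e-26). Its RNA measured 187, 110.3, 124 and 157 CPM at 0 h and 553, 331, 429 and 492 CPM at 15 h, without overlap, and rose by 1.64 ± 0.22 (adjusted p = 2.25e-06), or by 1.51 without the 5 libraries. PSMD12 rose by 1.26 in RNA and 1.17 in footprints, PSMD11 by 0.88 and 1.08, and PSMD7 by 0.79 and 0.86. PSMD13, PSMD3 and PSMD8 rose in footprints by 0.63, 0.49 and 0.46, with RNA changes of 0.24, 0.29 and 0.23 that were not called (adjusted p = 0.095, 0.30 and 0.18).

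The activators moved in opposite directions. PSME1 and PSME2 form the interferon-inducible activator PA28 and fell, while PSME3, which forms a related activator of the nucleus, rose. PSME1 measured 456, 500, 439 and 477 CPM in footprints at 0 h and 273, 270, 268 and 263 CPM at 15 h, without overlap, and fell by 0.80 ± 0.05 (adjusted p = 1.03e-17). Its RNA fell from 1074, 747, 847 and 828.5 CPM to 461, 374.5, 478 and 475 CPM, by 0.97 ± 0.13 (adjusted p = 1.52e-06), also without overlap. In neither assay was the fall large at 5 h, where the RNA change was 0.01 (adjusted p = 0.95) and the footprint change -0.13, with an adjusted p of 0.115 without footprint replicate 2 of 0 h.

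PSME2 measured 245, 176, 178 and 214 CPM in RNA at 0 h and 147, 131, 134 and 151 CPM at 15 h, without overlap, and fell by 0.53 ± 0.14 (adjusted p = 0.0030). Its footprints fell from 54.1, 55.6, 54.3 and 54.5 CPM to 37.5, 44.5, 47.6 and 46.7 CPM, by 0.29 ± 0.07 (adjusted p = 0.00037), also without overlap. PSME3 measured 74.2, 72.4, 69.0 and 65.2 CPM in footprints at 0 h, 138.5, 135, 136 and 134 CPM at 5 h, and 171.5, 174, 171 and 172 CPM at 15 h. It rose by 1.30 ± 0.05 in footprints (adjusted p = 7.88e-24) and by 1.60 ± 0.16 in RNA, from 35.01, 29.6, 41.5 and 30.2 CPM to 106, 114, 92.2 and 101 CPM (adjusted p = 3.61e-08), with no overlap in either assay. PSME4, which encodes the activator PA200, peaked in footprints at 5 h (0.64) and measured 0.33 at 15 h. PSMF1, which encodes the regulator PI31, rose in footprints by 0.43 at 15 h, with an RNA change of -0.06 that was not called (adjusted p = 0.87).

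Among the assembly chaperones 5 of 7 had risen in footprints at 15 h (median 0.60) and 3 in RNA. Of all genes, 40.1% were called higher in footprints and 28.4% in RNA. PSMG1, which with PSMG2 guides the assembly of the alpha ring, had the largest footprint rise of all tested members. Its footprints measured 37.0, 38.2, 36.2 and 37.2 CPM at 0 h, 53.2, 54.4, 50.4 and 53.1 CPM at 5 h, 101, 118, 114 and 112 CPM at 10 h, and 116, 123, 128 and 128 CPM at 15 h. The libraries of each later time lay above all those of 0 h. The change at 15 h was 1.75 ± 0.07 (adjusted p = 2.72e-25), a 3.35-fold rise, most of it between 5 and 10 h (1.08). Its RNA rose by 1.41 ± 0.16 (adjusted p = 3.36e-07), from 61.8, 63.3, 47.0 and 67.6 CPM to 186.5, 133.5, 153 and 167 CPM, without overlap.

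PSMG2, the partner of PSMG1, measured 73.5, 60.3, 35.9 and 43.2 CPM in RNA at 0 h and 71.1, 52.2, 56.6 and 68.0 CPM at 15 h, where the groups overlapped and the change of 0.20 was not called (adjusted p = 0.51). Its footprints rose from 28.1, 35.9, 30.97 and 31.97 CPM to 61.8, 67.3, 64.5 and 66.1 CPM, without overlap, by 1.03 ± 0.08 (adjusted p = 4.03e-15). PSMG3, which assists the alpha ring with PSMG4, measured more in RNA than in footprints: its RNA rose from 16.3, 14.3, 15.2 and 18.7 CPM to 39.9, 39.7, 48.7 and 36.1 CPM, by 1.34 ± 0.21 (adjusted p = 2.02e-05), and its footprints from 6.80, 3.61, 3.72 and 3.73 CPM to 5.75, 7.11, 6.86 and 5.62 CPM, by 0.60 ± 0.20 (adjusted p = 0.0063) with overlapping groups. PSMG4 had few counts, and its RNA change of 0.86 (adjusted p = 0.046) was not called without the 5 libraries (adjusted p = 0.17). Of the chaperones of the 19S base, PSMD9 rose by 0.83 and PSMD5 by 0.22 in footprints, and PSMD10 measured 0.08 at 15 h (adjusted p = 0.27).

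Between neighbouring times the footprints went on rising. From 5 to 10 h, 22 members were higher and 6 lower (all genes 31% and 30.7%), and from 10 to 15 h, 23 were higher and 2, PSMB10 and PSME1, lower (all genes 20.8% and 20.2%). In RNA 2 members, PSMD2 and PSMG1, were higher from 5 to 10 h and 5 lower (all genes 11% and 8.18%). From 10 to 15 h the same PSMB10 and PSME1 were lower in RNA (all genes 4.1% and 1.64%), the latter by 0.43 (adjusted p = 0.043). Without the 5 libraries the RNA counts were 2 higher and 5 lower from 5 to 10 h, and 1 and 1 from 10 to 15 h.

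Translational efficiency (TE) is the footprint change over the RNA change of a gene, tested as the interaction of assay and time in 1 edgeR fit over all 32 libraries and 8736 genes. At 15 h, 7 of the 44 members had a higher TE (15.9%, against 7.05% of all genes): PSMB3, PSMB4, PSMB5, PSMB6 and PSMB7 of the beta ring, PSMD4 of the cap and PSMG2 of the chaperones. The member median was 0.17 against -0.04 over all genes, and 0.48 over the 7 beta ring genes. By edgeR 0 members were called lower at 15 h, where 3 had an unadjusted p under 0.05 and DESeq2 called 1; 3.94% of all genes were called lower. At 10 h, 4 were higher and 2 lower (all genes 5.44% and 1.8%), and at 5 h, 1 was higher and 1 lower (all genes 4.13% and 2.34%). Without the 5 RNA libraries the counts were 7 higher at 15 h, 5 higher and 1 lower at 10 h, and 2 higher at 5 h.

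PSMB5 had the largest TE change, 0.98 ± 0.16 at 15 h (adjusted p = 2.6e-05; 0.88 without the 5 libraries). PSMD4 followed with 0.74 ± 0.13 (adjusted p = 7.21e-05; 0.62), PSMB7 with 0.70 ± 0.12 (adjusted p = 3.04e-05; 0.63) and PSMB4 with 0.59 ± 0.14 (adjusted p = 0.0025; 0.50). These 4 remained called with any 1 library left out. The other calls depended on single libraries. PSMG2 (0.80) gave an adjusted p of 0.15 without RNA replicate 1 of 0 h, PSMB3 (0.48) gave 0.094 without that library, and PSMB6 (0.43) gave 0.081 without footprint replicate 2 of 15 h and 0.15 without the 5 RNA libraries. The RNA of PSMB3, PSMB4, PSMB6 and PSMD4 fell, so their higher TE was a footprint change above a falling RNA, while the RNA of PSMB5 and PSMB7 was not called.

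**Figure D3:**
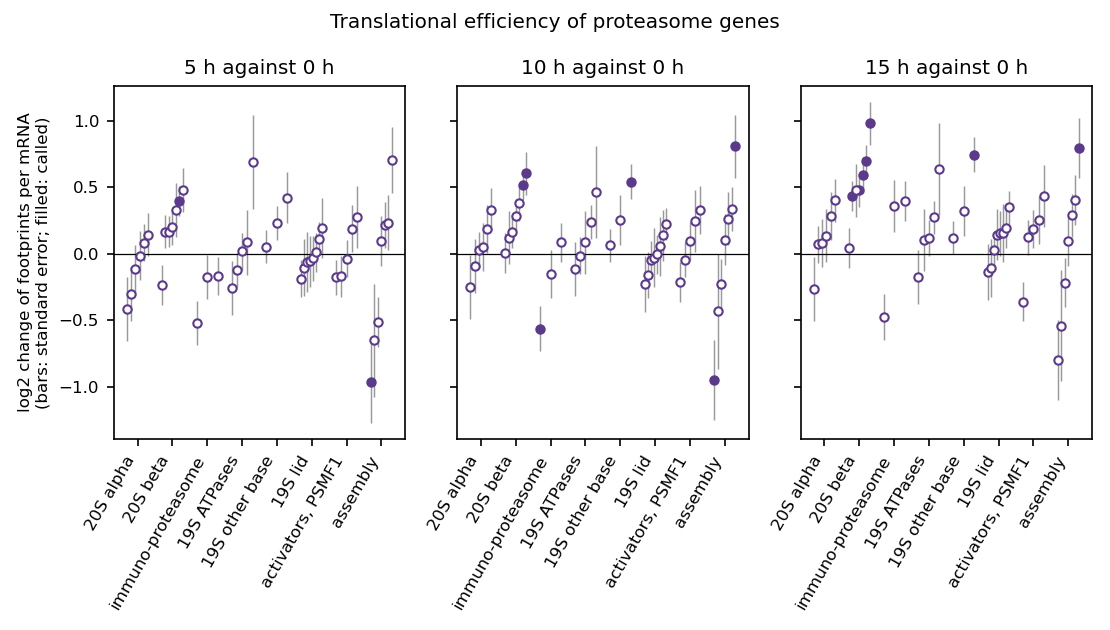
Log2 change of TE at 5, 10 and 15 h of serum against 0 h (panels; bars are standard errors of the edgeR interaction fit, filled points were called) for each tested gene by class. At 15 h the called beta ring genes lie between 0.43 and 0.98, and PSMD14, at 1.64 in RNA and 1.58 in footprints, lies at -0.11.

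PSMD4 was the only cap gene called in TE at 15 h. For PSMD14, PSMD12 and PSMD11 the TE changes at 15 h were -0.11, -0.14 and 0.15, none of them called (adjusted p = 0.82, 0.74 and 0.63), and the 95% interval for PSMD14 ran from -0.54 to 0.33. For PSMB8, PSMB9 and PSMB10 the TE changes at 15 h were 0.40, 0.36 and -0.47 (adjusted p = 0.078, 0.26 and 0.075), which were not called. PSMB10 had a lower TE at 10 h (-0.56, adjusted p = 0.032), which gave 0.078 without RNA replicate 2 of 0 h. PSMG3 had the lowest TE changes, -0.97 at 5 h and -0.95 at 10 h (adjusted p = 0.0499 and 0.046), which gave 0.122 without RNA replicate 3 of 5 h and 0.097 without RNA replicate 2 of 0 h. Between neighbouring times edgeR called 0 members in TE from 5 to 10 h, where 2 had an unadjusted p under 0.05, and 0 from 10 to 15 h, where 4 did. DESeq2 also called 0 in both, and among all genes edgeR called 0.595% higher and 0.0572% lower in the first and 0% either way in the second.

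PSMB5 is shown by its start because 5TOP mRNAs, which begin with a C and a run of pyrimidines, are known to be translated more when growth signals return. A C followed by at least 4 pyrimidines at any of a gene's RefSeq starts was found in PSMB5 alone of the 42 members with an entry (2.38%) and in 5.14% of all genes with one. PSMB5 has 2 RefSeq starts, and only 1 of them, the one shown, begins this way. Which of them these cells use was not tested. PSMB3, PSMB4 and PSMG2 were also called higher in TE at 15 h, and none of their starts begins this way. The part of this sequence in any TE change was not tested. The window is chr14:23034883-23034912 on the minus strand (GRCh38.p14), and the capitals mark the pyrimidine run from the start base on. PSMA7, PSMB1, PSMB6, PSMB7, PSMD4 and PSMG3 had no entry and could not be searched. Among them, PSMB6, PSMB7 and PSMD4 were called higher in TE at 15 h.
PSMB5: tcagaattagttCTTTCTgcccacactaga

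Before serum the footprints per RNA, each on the CPM scale, varied widely among the members. Ranked among all genes tested at 0 h, PSMB2 stood at percentile 94.1, PSMD12 and PSMF1 at 92.4 and PSME3 at 88.8, while PSME2 stood at 8.42, PSMG3 at 8.83 and PSMD4 at 12.1. PSMB5 moved from percentile 23.8 before serum to 42.1 and 43.4 in the middle of the course and 60.2 at its end. PSMD4 moved from 12.1 to 27.6, and PSMB2 stayed near the top at 96.6.

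The subunits of 1 complex are needed in equal numbers. Over core and cap genes together, footprints per kb of counted length came closer to each other over time, while within the cap they spread further apart. Across the 29 tested core and cap genes, the highest footprint level per kb was far above the lowest at 0 h (PSMB1 at 688 ± 39 and PSMD12 at 62.8 ± 1.3 CPM per kb, SD, n = 4) and 6.15 times it at 15 h (PSMA7 at 683 ± 16 and PSMD4 at 111 ± 1.3 CPM per kb). The SD of their log2 levels went from 0.96 at 0 h through 0.84 and 0.81 to 0.78 at 15 h. The median core gene measured 398 and the median cap gene 121 CPM per kb in footprints at 0 h, and 465 and 228 at 15 h. Within the core the SD of log2 footprint levels went from 0.60 at 0 h to 0.46 at 5 h, 0.48 at 10 h and 0.50 at 15 h. Within the cap it went from 0.53 through 0.65 and 0.67 to 0.65. These levels are a description with no test.

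RNA levels per kb were spread more widely. The highest of the 29 was 51.5 times the lowest at 0 h (PSMB4 at 1304 ± 118 and PSMD12 at 25.3 ± 6.1 CPM per kb) and 27.1 times at 15 h (PSMA7 at 1644 ± 251 and PSMD12 at 60.6 ± 12.3). PSMB2 was the lowest of the core in RNA, at 152 ± 38 CPM per kb at 0 h, and stood at 433 ± 12 in footprints. PSMD14 went from 145 ± 11 CPM per kb of footprints at 0 h to 434 ± 16 at 15 h, the highest of the cap.

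**Figure D4:**
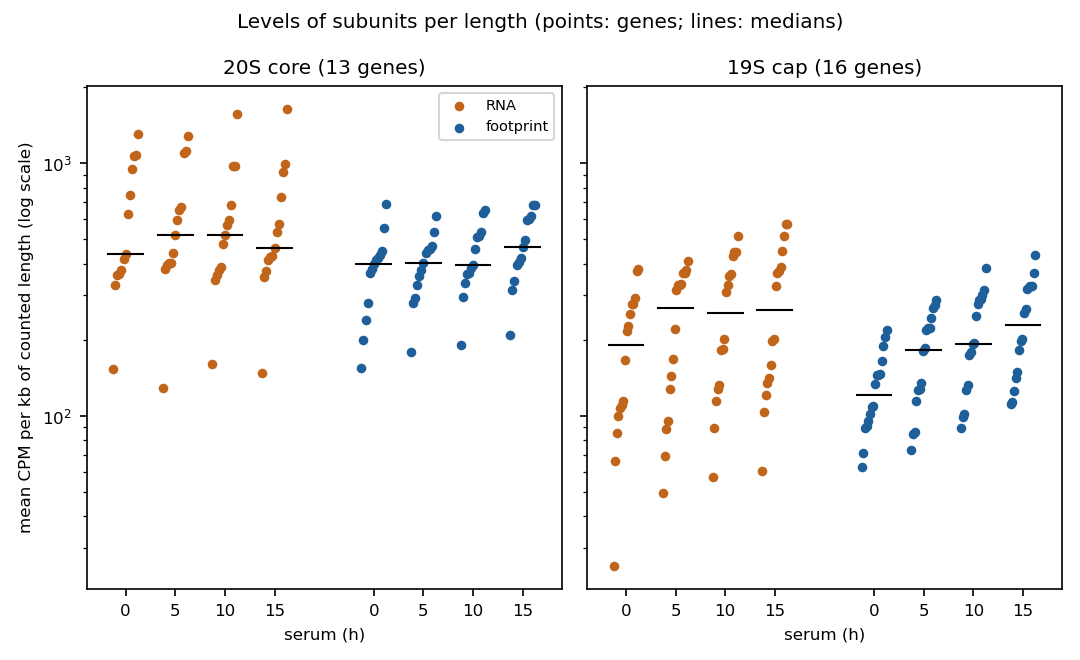
Mean CPM per kb of counted length (vertical log axis) of the core and cap genes in RNA and footprints at 0, 5, 10 and 15 h of serum, with a point per gene and a line at the median. The median cap gene climbs from 121 to 228 CPM per kb in footprints, and the median core gene from 398 to 465.

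Genes of the pathway that the symbol rule leaves out were taken from lists, which were chosen with earlier results of these data known. Their counts at 15 h stand beside the shares of all genes called higher and lower (40.1% and 39.6% in footprints, 28.4% and 22.1% in RNA, 7.05% and 3.94% in TE). Of 12 other proteasome genes, 8 had risen and 1 fallen in footprints at 15 h (median 0.56), 4 of 11 tested had risen in RNA, and 2 of 11 had a higher TE. UCHL5 and ADRM1, a deubiquitinase of the cap and its ubiquitin receptor, rose by 1.93 and 0.78 in RNA and by 2.07 and 0.99 in footprints. USP14, another deubiquitinase that binds the cap, rose by 1.04 in footprints with an RNA change of 0.21 that was not called (adjusted p = 0.46), and its TE was higher by 0.78 (adjusted p = 0.0086, and 0.053 without RNA replicate 4 of 0 h). POMP, the chaperone that matures the beta ring, measured 364, 371, 374 and 355 CPM in footprints at 0 h and 418, 402, 425 and 417 CPM at 15 h, without overlap, and rose by 0.18 ± 0.05 (adjusted p = 0.00065). Its RNA measured 393, 198, 221 and 226 CPM at 0 h and 459, 248, 321 and 338 CPM at 15 h, with overlap, a change of 0.39 that was not called (adjusted p = 0.17).

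Of 7 genes that control proteasome gene transcription, 5 had risen in footprints at 15 h (median 0.29), 2 had risen and 1 had fallen in RNA, and 2 had a higher and 1 a lower TE. NFE2L1 measured 177, 263, 293 and 190 CPM in RNA at 0 h, 132, 202, 143 and 142 CPM at 5 h, and 125, 206, 174 and 150 CPM at 15 h, where the groups overlapped at both times. Its RNA change was -0.57 ± 0.20 at 5 h (adjusted p = 0.033) and -0.49 ± 0.20 at 15 h (adjusted p = 0.046). Without RNA replicate 3 of 0 h these gave adjusted p = 0.121 and 0.165, and without the 5 RNA libraries the changes were -0.39 and -0.30 (adjusted p = 0.095 and 0.176). Its higher TE at 15 h (0.63, adjusted p = 0.044) gave 0.152 without RNA replicate 1 of 15 h and 0.131 without the 5, and the lower TE of MAFF (-1.61, adjusted p = 0.036) gave 0.105 without RNA replicate 3 of 0 h and 0.245 without the 5. The footprints of NFE2L1 measured 229, 243, 218 and 224 CPM at 0 h and fell by 0.34 at 5 h to 166, 214, 174 and 167.5 CPM. At 15 h the NFE2L1 footprints stood at 278, 258, 253 and 248 CPM, 0.18 above 0 h (edgeR adjusted p = 0.0095). MAFF and MAFK, small MAF proteins that pair with NFE2L1, rose at 5 h by 3.31 and 1.46 in RNA and by 2.26 and 1.56 in footprints. The core of the element these factors are known to bind, TGACNNNGC, was found in 15 of the 42 member promoters (35.7%) and in 16.1% of all genes' promoters, and CCAAT, bound by NF-Y, in 20 (47.6%) and 39.7%, both searched on either strand.

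Of 14 tested genes of antigen presentation and the interferon response, 12 had fallen in RNA at 15 h (median -0.79) and 13 in footprints (median -0.81), beside the falls of PSMB8, PSMB9, PSMB10, PSME1 and PSME2. At 5 h, where 16.4% of all genes were called lower in RNA, 4 of the 14 had fallen in RNA (median -0.23). In footprints 8 had fallen and 3 had risen (median -0.15, all genes 40.5% lower and 35.2% higher). IRF1 and STAT2, transcription factors of the interferon response, were among the 4 lower in RNA at 5 h, with log2 changes of -2.496 and -1.45. IFIT1, an interferon-induced gene, fell by 3.97. IRF9, the fourth, fell by 0.89 at 5 h and 2.63 at 15 h in RNA. This list too was chosen with earlier results of these data known, so its counts are not an independent test. The part of these changes in those of the immunoproteasome genes was not tested.

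Of 15 genes for ubiquitin and its delivery to the proteasome, 10 had risen and 2 fallen in footprints at 15 h (median 0.35), 4 of 14 had risen and 3 fallen in RNA, shares near those of all genes, and 2 had a higher TE. UBB, a polyubiquitin gene, fell by 0.76 in RNA and by 0.66 in footprints on the log2 scale. RPS27A, which encodes ubiquitin fused to a ribosomal protein, had a higher TE (2.10), but it shares ubiquitin sequence with UBB, and how the authors assigned shared reads is not given in the sources used here, so these values are uncertain.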

How the data were processed

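RNA-seq and Ribo-seq counts of 32 libraries were analysed, grouped by the time in their titles. Whole-number counts per gene and the counted length are as deposited by the authors, with no normalization; STAR 2.5.4a, featureCounts 1.5.1 and GRCh38 are named, per the submitters' processing notes. Which annotation was counted, and how strand, molecular identifiers and shared reads were handled, is not given in the sources used here. Because 96.5% of the lengths divide evenly by 3, they are taken for coding lengths. No column was left unmatched (0 of the count columns). Symbols came from the reference gene tables and matched 18572 of 19023 genes.

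Each assay was scaled by TMM, filtered by edgeR's filterByExpr and fitted with the robust quasi-likelihood test (edgeR 4.0.16, R 4.3.3) with time as the only factor. TE used an assay-by-time interaction. Ratios used a pseudocount of 0.5 and exact permutation tests (scipy 1.17.1, Python 3.11.15). The procedures were tested on simulated data. For TE both assays were simulated with the same variation between replicates, so the unequal variation of these data was not covered. DESeq2 1.42.0, other size factors, no filter, only the groups compared, a replicate block, a pseudocount of 2 and leaving out each library were the alternatives. Biological variation, as edgeR's common coefficient, came to 0.185 in RNA and 0.0547 in footprints. The edgeR p-values set a change against the spread between replicates of the same time. That spread was estimated in a joint fit over all times of an assay, with information shared across genes. For TE the fit also pooled RNA and footprints, whose variation differed. The permutation tests used only the libraries compared. Intervals cover the spread of the fit, since reads without molecular identifiers are not independent molecules.

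Members and lists were chosen with earlier results of these data known. Values per library are given for PSMB5 to PSMB10, PSME1, PSME2, PSMD4, PSMD14, PSMG1, NFE2L1 and POMP and, in each class, for the called member with the largest change at 15 h in RNA, footprints and TE. Those of PSMG3 were added outside this rule, and PSMG3 was not in the check for single libraries that stood apart. The marker lists, beside those named in the report, gave 4 of 4 tested epithelial and mesenchymal genes higher in footprints at 15 h (all genes 40.1%). In RNA 1 of these 4 was called higher and 1 lower at 15 h (all genes 28.4% and 22.1%). CD68, the only tested blood marker, was not called in footprints (-0.04, edgeR adjusted p = 0.58). Values of some genes of the lists are not reported here.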

Additional observations from a re-analysis of the deposited data

Results flagged for a closer look

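Single libraries stood apart from the other 3 of their group in CPM, by Dixon's criterion at 95%, in 14 of the 152 groups of 4 that hold the named genes (9.21%, where chance gives about 5%, or 1 in 20). In RNA at 0 h they were PSMA7 in replicate 4 (831.3 CPM, against 702.9 to 713.0 in the others), PSMB5 in replicate 3 (142.4, against 115.4 to 119.4) and POMP in replicate 1 (393.2, against 198.2 to 225.8). In RNA at 5 h they were PSMC2 (310.8, against 431.5 to 451.1) and NFE2L1 (201.7, against 132.3 to 143.2), both in replicate 2, and at 10 h PSMB6 in replicate 2 (383.8, against 329.0 to 331.6). In RNA at 15 h they were PSMB10 in replicate 3 (172.5, against 113.2 to 123.3), and PSMC5 (252.6, against 118.0 to 128.3) and PSME1 (374.5, against 461.3 to 478.1) in replicate 2. Of these 9 RNA values, 5 are in replicate 2 of 5, 10 or 15 h and 1 in replicate 3 of 0 h, libraries that deviated together across genes.

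In footprints they were PSMC2 in replicate 3 of 0 h (282.8, against 268.4 to 269.4), PSME1 and NFE2L1 in replicate 2 of 5 h (406.1, against 433.5 to 438.9, and 214.3, against 165.6 to 173.6), and at 15 h PSMC2 in replicate 1 (379.0, against 410.0 to 415.3) and PSMB7 in replicate 4 (299.7, against 308.4 to 310.1). NFE2L1 was highest in replicate 2 of 5 h in both assays.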

How the results depend on the processing

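Across DESeq2, other size factors, no filter, only the groups compared, the replicate block, single libraries left out and the 5 RNA libraries left out (the last chosen after seeing the data), 0 of 8992 recomputed single-gene changes reversed a call. A reversal here is a change of sign, and the loss of a call is counted apart. Of the members called at 15 h, 21 of 24 in RNA, 39 of 40 in footprints and 4 of 7 in TE kept their call in every one of these. At 10 h it was 19 of 20 in RNA, 35 of 38 in footprints and 2 of 6 in TE. At 5 h it was 10 of 15, 29 of 35 and 0 of 2, and the RNA calls lost in some alternative were those of PSMB8, PSMC2, PSMD1, PSMD4 and PSMD6. The counts of members called in footprints stayed within 1.5 times of those reported. In RNA from 10 to 15 h, 2 members were called, 1 with no filter and 1 with only the groups compared, and 1 to 2 with single libraries left out. TE at 5 h had 2 calls, 1 with the other size factors, 0 with no filter, 4 with DESeq2 and 1 to 5 with single libraries left out (5 without RNA replicate 2 of 5 h). TE at 10 h had 6, and 3 to 6 with single libraries left out (3 without RNA replicate 2 of 0 h, RNA replicate 3 of 10 h or footprint replicate 1 of 10 h), and TE at 15 h had 7, and 11 with DESeq2. The cause was not tested. RNA had both the lower depth (595851 to 1107470 counts per library) and the wider variation between libraries, and their parts in the precision of RNA and TE changes cannot be told apart.

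Replicate numbers were not taken as pairing the samples, since no label says what a number shares and not every same-numbered pair correlated above 0.1. In RNA 18 of 24 same-numbered pairs did (median r 0.20, lowest -0.27), against 15 of 72 with different numbers (median -0.08). In footprints 8 of 24 did, and across the assays 0 of 16. On average 11 of 16 RNA and 10 of 16 footprint libraries correlated best with their own number, a hint from the data and not from the design. RNA replicate 2 of every time is among the 5 libraries that stood apart, so the same-numbered RNA pairs above 0.1 include theirs. With a replicate block, 21, 24 and 29 members were called in RNA at 5, 10 and 15 h (15, 20 and 24 without it) and 12 from 5 to 10 h (7 without it), 9 in TE at 5 h and 13 in TE at 15 h. Paired by number, the exact sign-flip permutation test of the 15 called ratios cannot go below p = 0.125 and gave an adjusted p of 0.15 for each with the values unchanged: PSMB8 over PSMB5 -1.23 and -1.39 in RNA at 10 and 15 h and -0.996, -1.77 and -1.99 in footprints at 5, 10 and 15 h; PSMB9 over PSMB6 -0.95, -1.31, -0.42, -1.21 and -1.38 in that order; PSMB10 over PSMB7 -0.66, -1.26, -0.92, -1.74 and -2.43.

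With 1 library left out, 3 against 4 libraries gave an exact permutation adjusted p of 0.0686 for each of these, above the threshold by construction, and the ranges were as follows. PSMB8 over PSMB5 ran from -1.29 to -1.12 and -1.49 to -1.26 in RNA, and -1.04 to -0.94, -1.83 to -1.72 and -2.04 to -1.94 in footprints. PSMB9 over PSMB6 ran from -1.03 to -0.82 and -1.38 to -1.21, and -0.46 to -0.36, -1.25 to -1.18 and -1.43 to -1.33. PSMB10 over PSMB7 ran from -0.80 to -0.55 and -1.39 to -1.17, and -0.96 to -0.86, -1.78 to -1.68 and -2.48 to -2.37. At 5 h in RNA, PSMB10 over PSMB7 was -0.01, and -0.13 without the 5 RNA libraries. The spreads of levels per length moved by less than their SD between libraries with single libraries left out or with summed counts.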
